A study of Mus musculus with 24 samples.

Results

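The regions described here carried trimethylation of histone H3 lysine 27 (H3K27me3) in mouse limb buds at embryonic day 10.5 (E10.5), had no peak of acetylation at the same lysine (H3K27ac) at that stage, and lay under an H3K27ac interval at E11.5. The peaks of 4 E10.5 H3K27me3 lists were merged, and 4092 merged regions held at least 1 bp of a peak in every list. Of these, 3248 touched no peak of the 4 E10.5 H3K27ac lists and are called acetylation-free below. The members are the 44 acetylation-free regions that the E11.5 forelimb or hindlimb H3K27ac list covered by 1 bp or more, which is 1.35% of the acetylation-free regions (95% Wilson interval 1.01 to 1.81%, counting error only). No H3K27me3 list of E11.5 was used here, so whether a member still carried it at that stage is not known.

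The tissue was forelimb or hindlimb buds of C57BL/6J embryos, with no mutation or treatment named in the labels. Each limb had 2 H3K27me3 and 2 H3K27ac libraries of E10.5 buds and a single H3K27ac library of E11.5 buds. The series lists 24 samples, of which the 10 with peak lists were used and 14 were not analysed here. The labels name one antibody lot for H3K27ac at E10.5 and another at E11.5, so stage and lot cannot be told apart, and no E11.5 value has a replicate check. For the E11.5 samples the growth text gives day 10.5 but the titles give E11.5, which was used here. The labels do not say whether the E10.5 replicates came from separate litters, so their spread may be technical.

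H3K27me3 is written by Polycomb repressive complex 2 and is found over silent developmental genes. H3K27ac marks active promoters and enhancers, and a lysine cannot carry both marks at once. A limb bud contains mesenchyme, a covering ectoderm with its apical ridge, and blood and vessel cells. Chromatin from whole buds is a mixture of cells, so the 2 marks at one place can come from different cells, and more cells with a mark cannot be told apart from more of the mark per cell. In the developing limb the 5' Hox genes come on in the distal bud as the hand and foot plate forms.

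Genes were assigned by windows, placed from general knowledge of build mm9 and widened by 20 kb on each side, because no mm9 gene models were at hand. A window name below therefore means a position near the gene and not a promoter, exon or intron. The windows of the limb identity genes checked the limb labels. In the Tbx5 window, the forelimb gene, H3K27ac covered 13.2 and 9.28 kb in the E10.5 forelimb libraries and 21.7 kb in the E11.5 forelimb library, and 0 in every hindlimb library. In the Pitx1 window, the hindlimb gene, H3K27ac covered 13.44 and 13.97 kb in the E10.5 hindlimb libraries and 15.99 kb at E11.5, and 0 in every forelimb library.

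The sequences of the members themselves were not used here, as no mm9 genome was at hand. To show what kind of sequence stands at 4 genes whose windows hold well-covered members, their RefSeq promoters (build GRCm38.p6, each gene's own strand, 250 bases before to 50 after the start) are printed with every CG in capitals. CG-rich promoters are the usual seat of Polycomb in mammals. The 4 genes were chosen after the members' values were seen, and whether these bases lie inside a member was not established.
Hoxa13: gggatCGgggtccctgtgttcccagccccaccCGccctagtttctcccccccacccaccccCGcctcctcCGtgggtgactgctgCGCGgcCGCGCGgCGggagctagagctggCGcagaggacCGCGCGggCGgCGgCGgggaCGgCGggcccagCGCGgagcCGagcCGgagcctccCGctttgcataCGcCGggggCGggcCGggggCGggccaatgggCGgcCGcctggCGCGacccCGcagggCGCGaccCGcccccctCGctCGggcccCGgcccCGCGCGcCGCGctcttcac
Hoxd13: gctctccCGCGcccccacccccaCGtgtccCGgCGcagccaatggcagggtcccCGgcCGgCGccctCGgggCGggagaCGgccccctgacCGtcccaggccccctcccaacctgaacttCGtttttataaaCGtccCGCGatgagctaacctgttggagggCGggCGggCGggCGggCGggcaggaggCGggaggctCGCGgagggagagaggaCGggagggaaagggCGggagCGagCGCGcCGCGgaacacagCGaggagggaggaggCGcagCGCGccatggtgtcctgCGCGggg
Hand2: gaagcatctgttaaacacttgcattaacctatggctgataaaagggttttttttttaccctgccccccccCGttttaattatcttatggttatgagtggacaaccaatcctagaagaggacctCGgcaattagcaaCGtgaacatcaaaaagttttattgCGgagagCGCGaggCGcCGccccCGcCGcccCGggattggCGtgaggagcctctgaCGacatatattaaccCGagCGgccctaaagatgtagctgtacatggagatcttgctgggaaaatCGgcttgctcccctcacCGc
Zic5: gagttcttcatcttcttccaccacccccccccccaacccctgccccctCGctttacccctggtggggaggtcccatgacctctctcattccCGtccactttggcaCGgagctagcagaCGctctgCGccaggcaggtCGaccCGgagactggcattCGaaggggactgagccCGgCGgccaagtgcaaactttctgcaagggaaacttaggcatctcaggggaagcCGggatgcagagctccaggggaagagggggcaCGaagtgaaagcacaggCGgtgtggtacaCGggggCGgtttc
The Hoxa13 promoter held 45 CG, a number reached by 1.93% of the 32851 promoters in the table. The Hoxd13 promoter held 37, reached by 5.58% of promoters. The Hand2 and Zic5 promoters held 17 and 15, reached by 31.4% and 34.6%, against a median of 7 over all promoters.

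The cover of the 44 members at E11.5 ranged from a touch to the whole region. The median member was covered over 32.2% of its length in either list (interquartile range 7.74 to 82.1%). In 18 members the cover was 50% or more, including 7 that were covered whole, and in 12 it was under 10%. Cover of 50% or more was present at 0.554% of the acetylation-free regions. The members were chosen by these E11.5 values, together with the E10.5 peak lists, so the values are a description with no test.

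**Figure D1:**
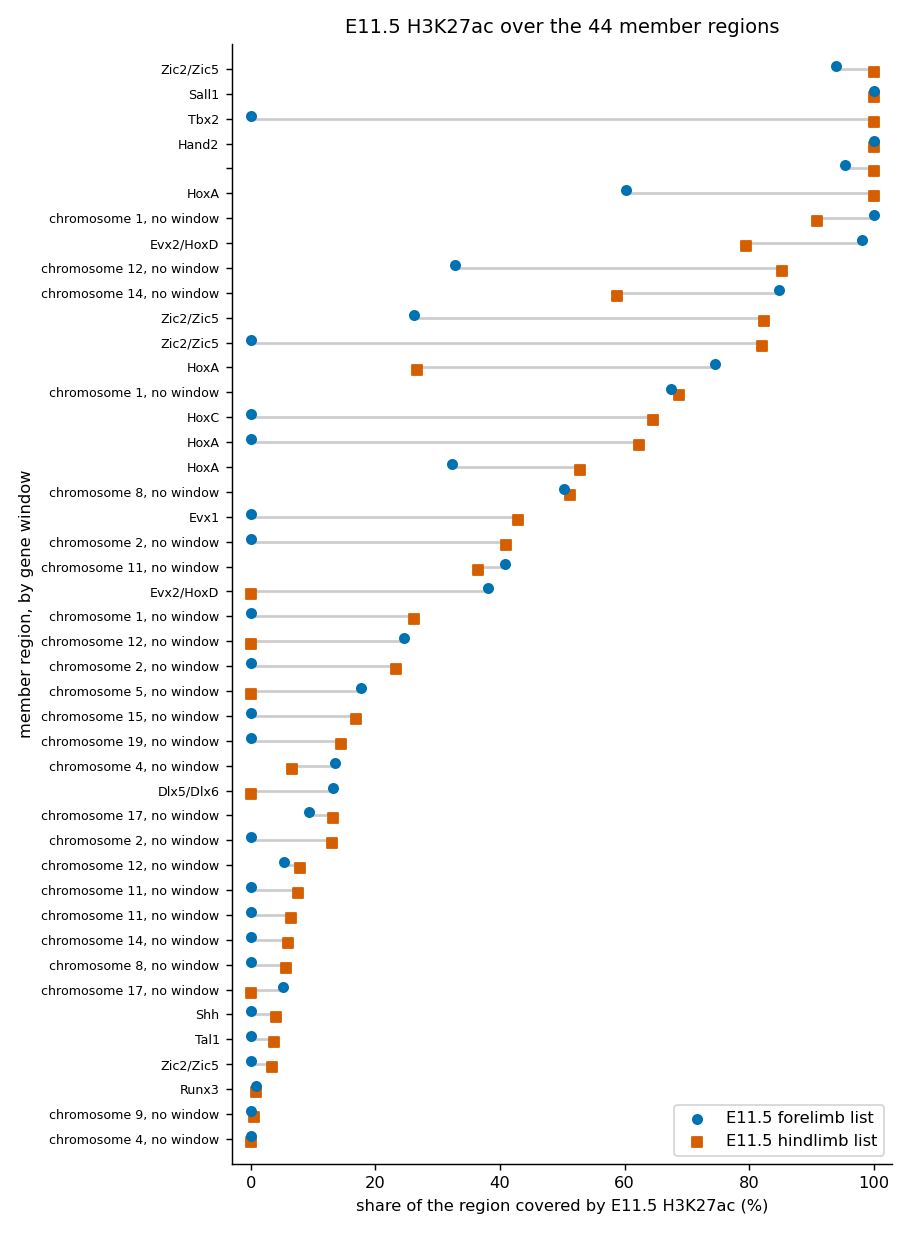
Share of each of the 44 members covered by H3K27ac at E11.5 (x axis, %), in the forelimb list (circles) and the hindlimb list (squares), 1 library each. Members are ordered by the share covered in either list and labelled by gene window or, in 24 cases, by chromosome alone; 1 label is left blank. The upper 18 are covered by 50% or more, and many of the lower ones show cover in 1 list with the other at 0.

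Both lists covered 19 members, the hindlimb list alone 19 and the forelimb list alone 6. The hindlimb list covered 38 members, or 1.17% of the acetylation-free regions, and the forelimb list 25, or 0.77%. The hindlimb list was also the longer, with 32612 intervals over 47.2 Mb against 23209 intervals over 31.3 Mb. The part of this in the limb counts was not tested. The E10.5 H3K27ac lists were shorter than either, at 7.63 to 14.7 Mb each, and the part of that in the number of members was not tested. Without the second E10.5 forelimb H3K27me3 library the forelimb-only count was 11. Of the 18 well-covered members, those with cover of 50% or more in either list, 14 were covered by 1 bp or more in both lists. Of the rest, 4 were covered in the hindlimb list alone and 0 in the forelimb list alone. Cover of 50% or more in both lists was seen at 10 members. Members covered in both lists had a median cover of 82.4%, against 14.4% for hindlimb only and 15.4% for forelimb only. This cover counts bases of either list, so a second list can only add to it.

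Members sat in 35 loci on 14 chromosomes when those within 100 kb were joined. Only 4 loci held more than 1 member, and together they held 13 members. They were the distal HoxA cluster with Evx1, the Zic2 and Zic5 pair, the Evx2 end of the HoxD cluster, and a place on chromosome 1 in none of the windows. The chromosome 1 pair shared an E11.5 interval in each list, and chr14:122880171-122881050 and chr14:122881097-122882785 shared one in the hindlimb list. Members of the HoxA and Evx1 locus and of the HoxD locus lay under separate intervals. Neighbouring members are still not independent of each other.

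The HoxA and Evx1 locus held 5 members. Hox genes of this end pattern the distal limb, and Evx1 is a homeobox gene beside the cluster. The member at chr6:52208127-52209604 (1478 bp) was covered over 60.1% in forelimb and 100% in hindlimb. The members at chr6:52217891-52219136 and chr6:52222632-52227068 were covered in both limbs too, by 74.6% and 32.3% in forelimb and 26.7% and 52.8% in hindlimb. The member between them, chr6:52219853-52221601, was covered over 62.3% in hindlimb and 0 in forelimb. The Evx1 member, chr6:52259215-52261154, was likewise at 0 in forelimb and at 42.8% in hindlimb. Of the 5 members, only chr6:52217891-52219136 was covered more in forelimb than in hindlimb.

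The hindlimb H3K27me3 lists were longer than the forelimb lists, so limb differences at single members are given as deposited and again with each library scaled to equal covered bases. Scaling multiplied the covered bases by 1 factor per library, which raised the forelimb values and lowered the hindlimb values. No limit was set at the length of a region, so a scaled value can exceed it and is not a measured amount. As deposited, both hindlimb libraries lay above both forelimb libraries at 63.7% of the acetylation-free regions, and scaled at 12.7%. At these 5 members the forelimb mean of H3K27me3 was above the hindlimb mean, unlike most members, though without overlap at 1 of them. The 4437 bp member chr6:52222632-52227068 had 3.76 and 4.01 kb of H3K27me3 in forelimb and 3.07 and 2.64 kb in hindlimb. It is the 1 member in which both forelimb libraries lay above both hindlimb libraries, which held for 1.05% of the acetylation-free regions. Scaled, both forelimb libraries were above at all 5, as they were at 41.1% of the acetylation-free regions. Some scaled forelimb values exceeded the member itself, such as 5.71 kb in the second forelimb library at the 4437 bp member. The part of the scaling factor in this order was not tested. The first HoxA member had 1.48 and 1.05 kb in forelimb and 1.15 and 1.38 kb in hindlimb, and the groups overlapped as deposited. The Evx1 member overlapped too, with 1.79 and 1.48 kb in forelimb and 1.04 and 1.55 kb in hindlimb. The others overlapped as well. The member chr6:52217891-52219136 had 1.115 and 0.414 kb in forelimb and 0.523 and 0.328 kb in hindlimb. The member chr6:52219853-52221601 had 1.68 and 1.06 kb against 1.31 and 0.318 kb, and no base of it lay under peaks of all 4 libraries. A member joins the peaks of all lists, so its E11.5 cover can fall on bases without an H3K27me3 peak in some libraries.

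**Figure D2:**
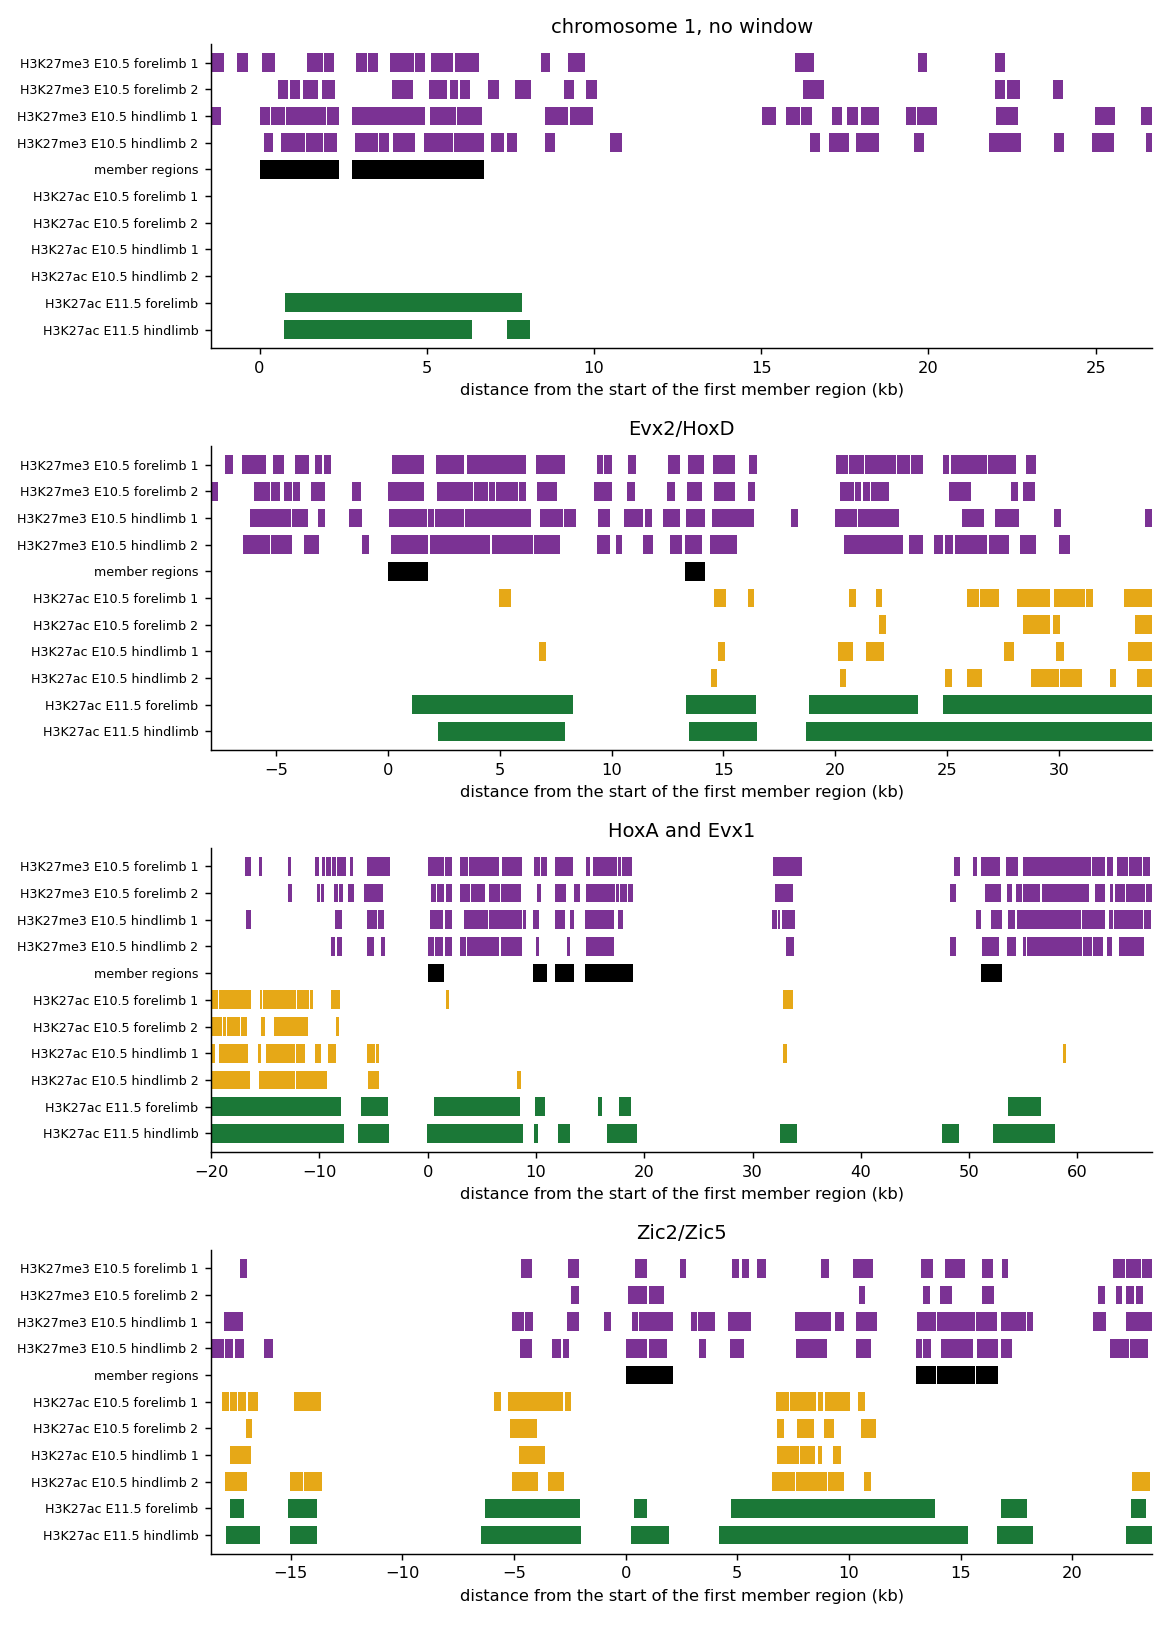
Intervals of the 10 lists around the 4 loci with more than 1 member, in kb from the start of the first member and out to 20 kb beyond the members at most. Purple bars are E10.5 H3K27me3 peaks, black bars the members, yellow bars E10.5 H3K27ac peaks and green bars E11.5 H3K27ac intervals, 1 row per library. E10.5 H3K27ac is in no row of the chromosome 1 panel, while the other 3 panels show it close to members.

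The HoxD window held 2 members, both at the Evx2 end. Hoxd13, the last gene of the cluster, is required for digits. The member at chr2:74505111-74505977 (867 bp) was covered over 98.0% in forelimb and 79.5% in hindlimb, with an E10.5 H3K27ac peak 253 bp away. Its H3K27me3 was 0.707 and 0.662 kb in forelimb and 0.829 and 0.753 kb in hindlimb, with both hindlimb libraries above both forelimb libraries. Scaled to equal covered bases this reversed, to 0.765 and 0.941 kb in forelimb and 0.660 and 0.674 kb in hindlimb. The scaled 0.941 kb exceeds the 867 bp of the member, and the part of the scaling factor in this reversal was not tested. The member at chr2:74491809-74493587 was covered over 38.1% in forelimb and 0 in hindlimb. The HoxC member, chr15:102775332-102776336, was covered over 64.6% in hindlimb and 0 in forelimb.

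Hox windows held 8 of the 44 members. They contained 27 acetylation-free regions, of which 29.6% were members (95% Wilson interval 15.9 to 48.5%), against 1.12% of the 3221 elsewhere. The 5 Hox windows are the 4 clusters and Evx1, and the HoxB window had 0 members. The regions of a cluster lie side by side, so the interval understates the error, and the set was known from earlier results. Cover of 50% or more was seen at 6 of the 8.

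The Zic2 and Zic5 window held 4 members, the same number as HoxA. Zic genes encode zinc finger factors best known from the neural tube, and Zic2 and Zic5 are neighbours. The member at chr14:122880171-122881050 (880 bp) was covered over 93.9% in forelimb and 100% in hindlimb. The member at chr14:122867160-122869261 was covered over 26.3% in forelimb and 82.4% in hindlimb. The other 2 were covered in hindlimb alone, over 82.0% at chr14:122881097-122882785 and over 34 bp at chr14:122882843-122883833. E10.5 H3K27ac stood between chr14:122867160-122869261 and the other 3 members. It started 6.55 to 6.79 kb from the start of chr14:122867160-122869261 in all 4 libraries. All 4 acetylation-free regions of the window were members.

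Neural windows as a whole held 5 members among 156 acetylation-free regions, or 3.21%, against 1.35% of all acetylation-free regions, and 4 of the 5 were these.

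Of the limb regulators outside the Hox clusters, Hand2, Sall1 and Tbx2 had members covered whole. Hand2, which sets up the posterior limb, had a member at chr8:59798216-59799359 covered over all 1144 bp in both limbs; the spacing of its window differed from the table by 45.7 kb, the least sure placement among the windows with a member. Sall1, a zinc finger gene of the distal bud, had a 1006 bp member at chr8:91569774-91570779 covered whole in both limbs. Tbx2, a T-box gene of the limb margins, had a 2095 bp member at chr11:85643889-85645983 covered whole in hindlimb and at 0 in forelimb. These 3 members lay 549, 118 and 145 bp from an E10.5 H3K27ac peak, and at each an E11.5 interval reached such a peak. With cover of 50% or more, 8 windows still held a member, among them these genes, HoxA, HoxC, Evx2 and HoxD, and Zic2 and Zic5.

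H3K27me3 of the Hand2 member was 0.279 and 0.491 kb in forelimb and 1.07 and 0.831 kb in hindlimb, and the limbs did not overlap as deposited or scaled (0.302 and 0.698 kb against 0.855 and 0.743 kb). The Tbx2 member had 1.56 and 0.720 kb in forelimb and 1.92 and 2.07 kb in hindlimb, with no overlap, but overlapped when scaled, at 1.69 and 1.02 kb against 1.53 and 1.85 kb. The Sall1 member had 0.288 and 0.294 kb in forelimb and 0.307 and 0.614 kb in hindlimb, a small separation next to the spread of the hindlimb pair, and overlapped when scaled.

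Long domains were only touched. Runx3, a runt factor gene of cartilage and blood, had the longest member, 12056 bp at chr4:134702978-134715033, covered by 97 bp in forelimb and 95 bp in hindlimb. Shh, the signal of the zone of polarizing activity, had an 11151 bp member at chr5:28784259-28795409 covered over 457 bp, or 4.10%, in hindlimb and 0 in forelimb. Tal1, a blood and endothelial regulator, had a 9224 bp member at chr4:114728533-114737756 covered over 338 bp in hindlimb alone. The Dlx5 and Dlx6 window, for homeobox genes of the apical ridge and skeleton, had a 5577 bp member at chr6:6827423-6832999 covered over 738 bp, or 13.2%, in forelimb alone. Each of these 4 was covered under 15% of its length.

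In all, 13 of 158 windows held a member, 117 of them having an acetylation-free region to cover. Members made up 4.40% of the 455 acetylation-free regions inside windows and 0.859% of the 2793 outside. No member lay in the muscle windows, with 46 acetylation-free regions, the trunk organ windows, with 85, the limb mesenchyme windows, with 22, or the proximal limb windows, with 15. Against the background of 1.35%, 0 members in groups of this size is not a result about them. The windows were listed with earlier results known.

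The other 24 members lay in no window and are given by position. On chromosome 1, chr1:19198889-19201252 and chr1:19201657-19205587 were covered in both limbs, over 67.4% and 100% in forelimb and 68.7% and 90.9% in hindlimb. No E10.5 H3K27ac peak lay within 1150 kb of either, the farthest of all members. Their H3K27me3 was 1.16 and 1.41 kb in forelimb and 2.31 and 1.90 kb in hindlimb at the first, and 3.003 and 1.73 kb against 3.72 and 3.38 kb at the second. The limbs did not overlap at either as deposited, and overlapped at both when scaled, at 1.25 and 2.003 kb against 1.84 and 1.698 kb and at 3.25 and 2.46 kb against 2.96 and 3.02 kb.

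Of the remaining members without a window, chr14:57675954-57677603 was covered over 84.8% in forelimb and 58.8% in hindlimb, and chr8:87236806-87239183 over 50.2% and 51.2%. The long ones were covered little: chr14:58691015-58696299 over 5.90% and chr8:89991529-89996442 over 5.68%, both in hindlimb alone. Likewise chr15:76124059-76128116 was covered over 16.9% in hindlimb alone, and chr17:85862674-85866996 over 9.35% in forelimb and 13.2% in hindlimb. Over the 24, the median cover was 15.6%, with 9 covered in both limbs, 11 in hindlimb alone and 4 in forelimb alone.

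Members lay nearer to E10.5 H3K27ac than the other acetylation-free regions. The median distance to the nearest E10.5 H3K27ac peak was 3.50 kb for members and 31.9 kb for the 3204 others. A peak lay within 1 kb of 14 members (31.8%) and of 5.56% of the others. The share of acetylation-free regions covered at E11.5 was 7.29% within 1 kb (Wilson interval 4.39 to 11.9%), 3.92% from 1 to 5 kb (2.26 to 6.73%), 0.678% from 5 to 20 kb (0.290 to 1.58%), 0.263% from 20 to 50 kb (0.0722 to 0.954%) and 0.878% beyond 50 kb (0.491 to 1.57%). The intervals cover counting error only, and members of 1 locus are not independent of each other. No test was made, since the rule uses both lists.

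**Figure D3:**
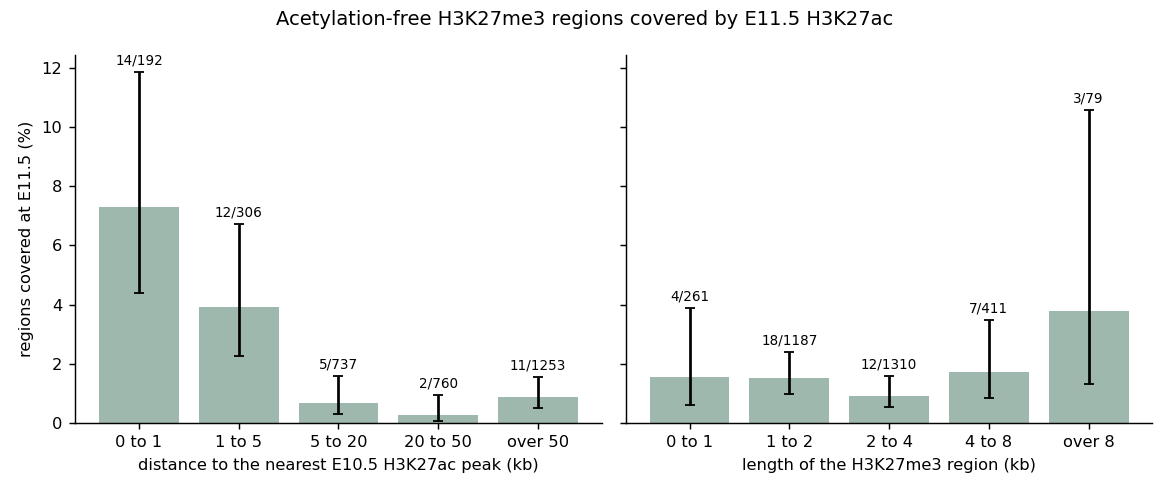
Percent of acetylation-free H3K27me3 regions covered by H3K27ac at E11.5 (y axis), by distance to the nearest E10.5 H3K27ac peak (left) and by length of the region (right), both in kb. Error bars are 95% Wilson intervals for counting error and the labels give members over regions. The share falls from 7.29% within 1 kb to 0.263% at 20 to 50 kb and is 0.878% beyond 50 kb, while the length classes overlap.

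In 16 members an E11.5 interval that covered the member also reached an E10.5 H3K27ac peak, and in 28 none did. Over all E11.5 intervals, 54.1% in forelimb and 43.1% in hindlimb touched an E10.5 H3K27ac peak. Those are shares of intervals and not of members. The members were also chosen to touch no such peak, so the shares are not a like comparison. The 16 had a median cover of 52.7% and a median distance of 0.252 kb, and the 28 a median cover of 23.9% and a median distance of 15.9 kb. The smallest gap between E11.5 intervals was 1001 bp, where E10.5 lists had gaps down to 1 or 2 bp. Near intervals thus look joined at E11.5, and the part of joining in these counts was not tested. Well-covered members were in both groups, 8 among the 16 and 10 among the 28.

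The 11 members over 50 kb from E10.5 H3K27ac split by limb. The 4 covered in both limbs included the chromosome 1 pair and chr17:85862674-85866996. The other 7 were covered in 1 limb, 5 in hindlimb and 2 in forelimb, with cover from 3.66 to 40.9%. Of all acetylation-free regions 38.6% lay that far away, against 25% of the members.

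The H3K27me3 regions that already touched E10.5 H3K27ac differed more. Of these 844 regions, which were 20.6% of the 4092, the E11.5 lists covered 130, or 15.4%. Over all 4092 regions the share was 4.25%. Length separated members little from the others, at a median of 2018 bp against 2172 bp. Another region of all 4 lists lay within 20 kb of 32 members (72.7%) and of 55.4% of the others. Other members counted as such regions. The 13 members that share a locus with another member were all among the 32, so a few clusters raised this share. Members alone in their locus were not compared with the others.

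Weaker and shorter H3K27me3 regions were covered more fully. The score of each H3K27me3 peak was ranked within its list, and the best peak of a region was averaged as a percentile over the 4 lists. The 18 members covered by 50% or more had a median score percentile of 60.1 and a median length of 1.67 kb. The 26 covered less had 87.8 and 2.60 kb. Over the 44 members, Spearman's rho of the covered share was -0.60 with the score percentile and -0.51 with length. Score and length themselves went together, with rho 0.80 in members and 0.81 in all acetylation-free regions, and a given interval covers a smaller share of a longer region.

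**Figure D4:**
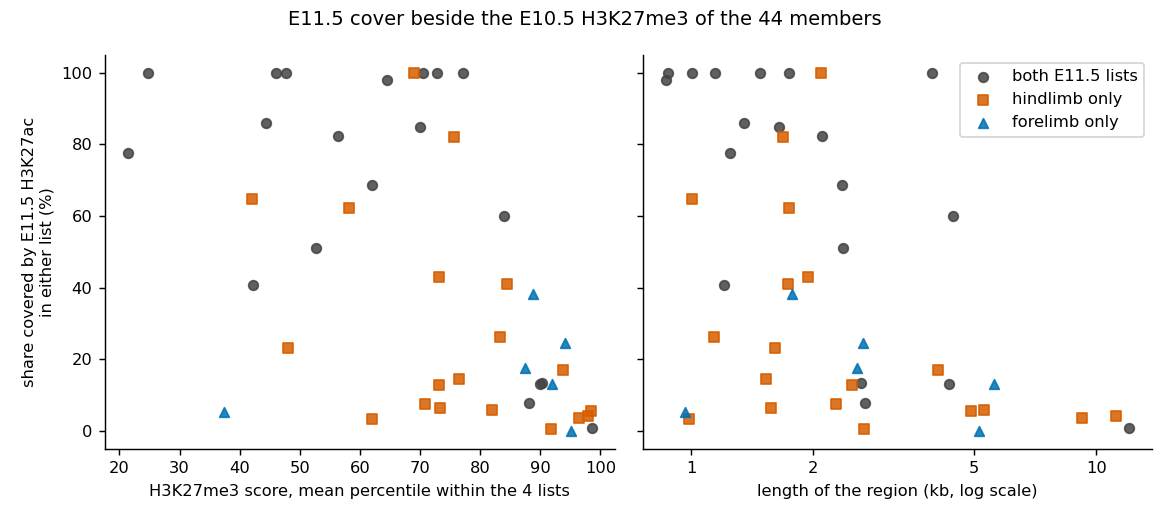
Share of each of the 44 members covered by E11.5 H3K27ac in either list (y axis, %) against its mean H3K27me3 score percentile at E10.5 (left) and its length in kb on a log scale (right). Grey circles are members covered in both E11.5 lists, squares hindlimb only and triangles forelimb only; members of 5 kb or more all lie under 15%.

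Summed over the 44 members, 127.3 kb in all, H3K27me3 peaks covered 98.7 and 83.4 kb in forelimb and 114.9 and 110.5 kb in hindlimb. The means were 91.1 ± 10.8 kb (SD, n = 2) and 112.7 ± 3.12 kb (SD, n = 2), a ratio of 1.24, and the exact two-sided permutation test gave p = 0.3333, the smallest that 2 against 2 can give. The other acetylation-free regions had a ratio of 1.27. The hindlimb lists were longer throughout, and with equal covered bases per library the direction turned: 106.9 and 118.6 kb in forelimb and 91.5 and 98.9 kb in hindlimb. Both hindlimb libraries were above both forelimb libraries at 31 members (70.5%), against 63.7% of the acetylation-free regions, a share close to the background. Scaled, this held at 8 members (18.2%, background 12.7%), and both forelimb libraries were above at 21 (47.7%, background 41.1%).

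The E10.5 H3K27me3 was also set beside the limb in which a member was acetylated at E11.5. The hindlimb-only members had 47.4 and 38.2 kb of H3K27me3 in forelimb and 53.5 and 51.9 kb in hindlimb, a ratio of 1.23. The forelimb-only members had a ratio of 1.21, from 15.6 and 12.9 kb to 16.9 and 17.5 kb. For members covered in both limbs the ratio was 1.26. Scaled to equal covered bases all 3 turned, to 0.843, 0.826 and 0.854 in that order, against 0.866 for all acetylation-free regions. The differences between these 3 ratios were not tested.

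**Figure D5:**
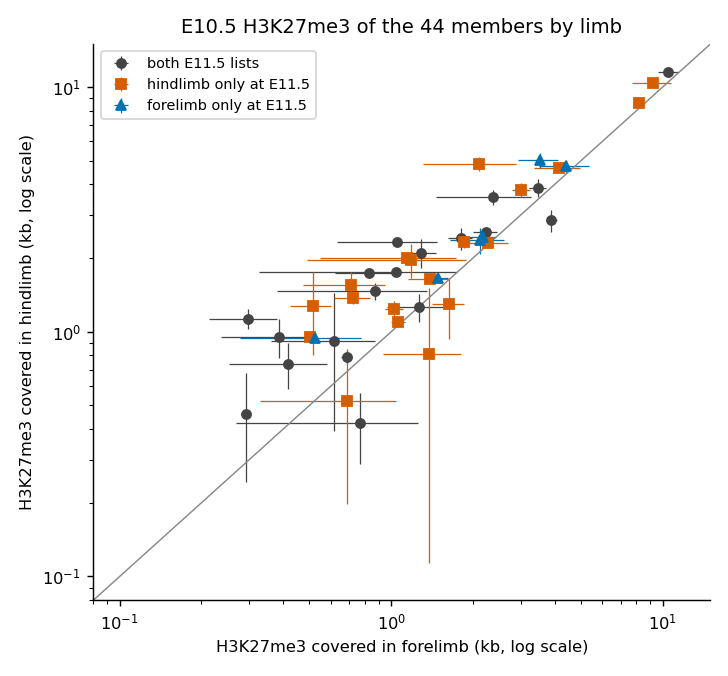
H3K27me3 covered in each member at E10.5 as deposited, the mean of the 2 forelimb libraries (x axis) against the mean of the 2 hindlimb libraries (y axis), in kb on log scales, with bars of 1 SD. The line marks equal cover; most members of all 3 limb patterns lie above it, a direction that turns for each pattern's sum when the libraries are scaled to equal covered bases.

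At the edge of the rule, cover was a matter of few bases. Just inside were members covered by 1 bp (chr4:154332800-154337934), 15 bp (chr9:62981281-62983948), 34 bp and 50 bp (chr17:8476832-8477799), and the Runx3 member with 97 bp in either list. Just outside, the nearest acetylation-free regions lay 5 bp (chr7:56501510-56504266), 36 bp (chr12:4482191-4483700), 41 bp (chr5:125340215-125342844), 44 bp (chr7:19576696-19578768) and 65 bp (chr4:153511273-153516297) from an E11.5 interval. With a minimum of 100 bp, 39 members stayed.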

How the data were processed

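The submitters' processing notes name Bowtie 0.12.3, MACS 1.37 and build mm9. The deposited E10.5 lists, 1 per library, hold peaks past a p-value threshold of 1e-05 per the file headers, each with the authors' score, which is -10 times log10 of its p (lowest 50). The deposited E11.5 lists hold positions only; no source used here gives their threshold. Peak lists carry no depth, so absence of a peak says only that none passed the threshold.

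Peaks were merged at gap 0 and covered bases counted with numpy 2.4.6 and pandas 2.3.3, checked on simulated lists; scipy 1.17.1 gave the permutation test and Wilson intervals. Members, windows and lists were chosen with earlier results of these data known. The 173 windows were recalled positions, in part by way of later builds, so their bounds are approximate. They were compared with a GRCm38 table for chromosome and for spacing to the nearest window; 15 that differed by over 50 kb were dropped. As the positions were partly recalled from that build, this is no independent check. The 50 kb tolerance was chosen after the members were seen. Text names windows with a member, the 10 members with most covered bases, the 10 longest and the 5 on each side of the threshold; 1 of these members is not reported here. H3K27me3 was sequenced single-end and H3K27ac paired-end, per the labels.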

Additional observations from a re-analysis of the deposited data

How the results depend on the processing

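Of 102 alternative values, 69 stayed within 1.5 times the count, inside the interval of the share or median or, for the H3K27me3 difference between limbs, on the same side of 0. Merging H3K27me3 peaks up to 1 kb apart gave 29 members, 10 of them in both limbs, with a median cover of 9.16% and an H3K27me3 difference, hindlimb minus forelimb, of 52.98 kb in place of 21.6 kb. Cover of 50% of the region or more in 1 list gave 18 members, 0.554% of acetylation-free regions, in 8 windows: 1 forelimb only, 7 hindlimb only and 10 in both. Requiring no E10.5 H3K27ac within 1 kb gave 0.982% and 10 members in both limbs; within 5 kb it gave 18 members, or 0.655%, with 2 forelimb only, 9 hindlimb only and 7 in both. The top 50% of H3K27me3 peaks by score gave 28 members, 10 in both limbs. The top 50% of E10.5 H3K27ac peaks gave 82 members, or 2.22%, with 11 forelimb only, 35 hindlimb only and 36 in both, since fewer acetylation peaks leave more regions free. E11.5 intervals of 1 kb or wider gave 25 members, or 0.770%, with 9 hindlimb only and 12 in both. The E11.5 forelimb list alone gave 25 members, or 0.770%.

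Leaving out 1 E10.5 library at a time gave 46 to 63 members (1.30 to 1.83%), 6 to 11 forelimb only, 18 to 27 hindlimb only, and 20 to 28 in both limbs. For the next 2 values only the 4 H3K27me3 libraries were left out, 1 at a time. The median cover, over members chosen again each time, was 32.4 to 41.4%. The H3K27me3 difference, over the same 44 members each time, was 13.995 to 29.3 kb. The number can only grow here without an H3K27ac library, and all 44 members remained without each of the 4. That difference was 21.6 kb and reversed to -17.5 kb with equal covered bases per library; the cause was not tested. With the replicate number as a block it was 21.6 kb, from 16.2 and 27.1 kb within the numbers; 2 pairs cannot give an exact p below 0.5, and replicate deviations of the limbs correlated at 0.0212, so the numbers are not shown to pair the libraries.

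Scaled values of single members and limb patterns were added after seeing the data. Also chosen after seeing the data, E11.5 intervals that touch no E10.5 H3K27ac peak gave 28 members, and a window spacing within 20 kb left 12 windows with a member, without Hand2. Depth is unknown, which limits every absence of a peak.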
